A study of Mus musculus with 3 samples.

Results

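Messenger RNA of 40 genes of antioxidant defence, covering the superoxide dismutases and catalase, the glutathione peroxidases, the peroxiredoxins, the thioredoxin and glutathione systems and the metallothioneins, was measured in ovaries of mice with and without a conditional deletion of the clock gene Bmal1. The genes were chosen by name: a gene was included where the array's own annotation gives its symbol to at least 1 probe that is no control. All 40 were measured and stood among the 17849 genes tested. They were read by 64 probes, of which 63 passed the filter on dim probes, and the brightest probe of each gene gave its value. For each of the 40, the scanner software marked that probe as well above background in the cKO and in the control channel of every array.

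The conditional knockout (cKO) females carried floxed Bmal1 alleles and a Cre recombinase under the Sf-1 promoter (Bmal1fx/fx Cre sf-1), and the controls carried the floxed alleles without Cre (Bmal1fx/fx). The Sf-1 promoter is active in steroid-producing cells of the gonads and adrenal and in some other cells of the reproductive axis, so only part of the cells of an ovary could lose the gene. All animals were C57Bl/6J females, 10 weeks old, and were killed 3.5 days post copulation at Zeitgeber time (ZT) 12, when corpora lutea are active. On each of the 3 two-colour arrays a pool of 3 cKO ovary samples labelled with cy3 met a pool of 3 control samples labelled with Cy5, which gives 9 animals per genotype in all. No array had the dyes swapped, so dye and genotype cannot be told apart, and p-values cover the spread between pools, not between animals.

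Reactive oxygen species are by-products of respiration and of the cytochrome P450 reactions that make steroids. Superoxide dismutases turn superoxide into hydrogen peroxide, which catalase, glutathione peroxidases and peroxiredoxins break down. Glutathione recharges the glutathione peroxidases, and thioredoxin recharges most peroxiredoxins. Many of these genes are switched on by the transcription factor NRF2 (gene Nfe2l2), which KEAP1 holds in check and which binds the antioxidant response element. BMAL1, with its partner CLOCK, binds another motif, the E-box.

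The 2 slides held array 1 and arrays 2 and 3, and the median spot signal was 1.80 to 2.80 times its local background in the 6 channels. Array 3 stood apart from the other arrays. Over all genes tested, the log2 ratios of arrays 1 and 2 had a Pearson's r of 0.60, those of arrays 1 and 3 one of 0.21 and those of arrays 2 and 3 one of 0.01. Over the 40 antioxidant genes, which are not independent of each other, r was 0.77, 0.18 and 0.18 for the same pairs. For Arntl, the gene targeted, the cKO over control log2 ratios were 0.27, 0.13 and -0.24 in array order (limma, adjusted p = 0.932). Since no label states which stretch of Arntl is floxed, its probe may lie outside it and is no check of the deletion. Fixed markers of ovarian cells were looked up among the genes tested. Present were 8 of 8 luteal and steroidogenic, 7 of 7 granulosa, 8 of 8 oocyte and 3 of 4 theca markers, without Insl3. So were 10 of 10 macrophage, 4 of 5 adipocyte and 3 of 4 oviduct epithelium markers. Presence among the genes tested therefore does not identify the tissue.

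No antioxidant gene passed the test after adjustment. At an adjusted p under 0.05 (limma), 32 of 17849 genes were called, 0.179% of those tested (0.0728% higher and 0.106% lower in the cKO), and 0 of the 40. At an unadjusted p under 0.05, 10 of the 40 were counted, against 12.3% of all genes. Of these, 7 were lower in the cKO pools (Sod1, Sod2, Gpx1, Gpx4, Prdx1, Hmox1 and Hmox2; 6.44% of all genes) and 3 were higher (Srxn1, Nfe2l2 and Mgst1; 5.91% of all genes). At least 1.5-fold lower on average and lower on every array were 4 of the 40 (Sod2, Hmox1, Prdx1 and Gpx1), against 2.99% of all genes, and 2 were higher to that extent (Srxn1 and Nfe2l2), against 2.73%. The ratio was below 0 on all 3 arrays for 12 of the 40, against 17.8% of all genes, and above 0 on all 3 for 4, against 17.5%. The mean was below 0 for 28 of the 40, against 50% of all genes, and the median of their means was -0.18, against -0.00 over all genes. Without replicate 3, whose array stood apart, the count at an unadjusted p under 0.05 was 16 of the 40 and the median was -0.06. In that setting 4782 of the 17849 genes were counted, against 2203 with all 3 arrays.

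**Figure D1:**
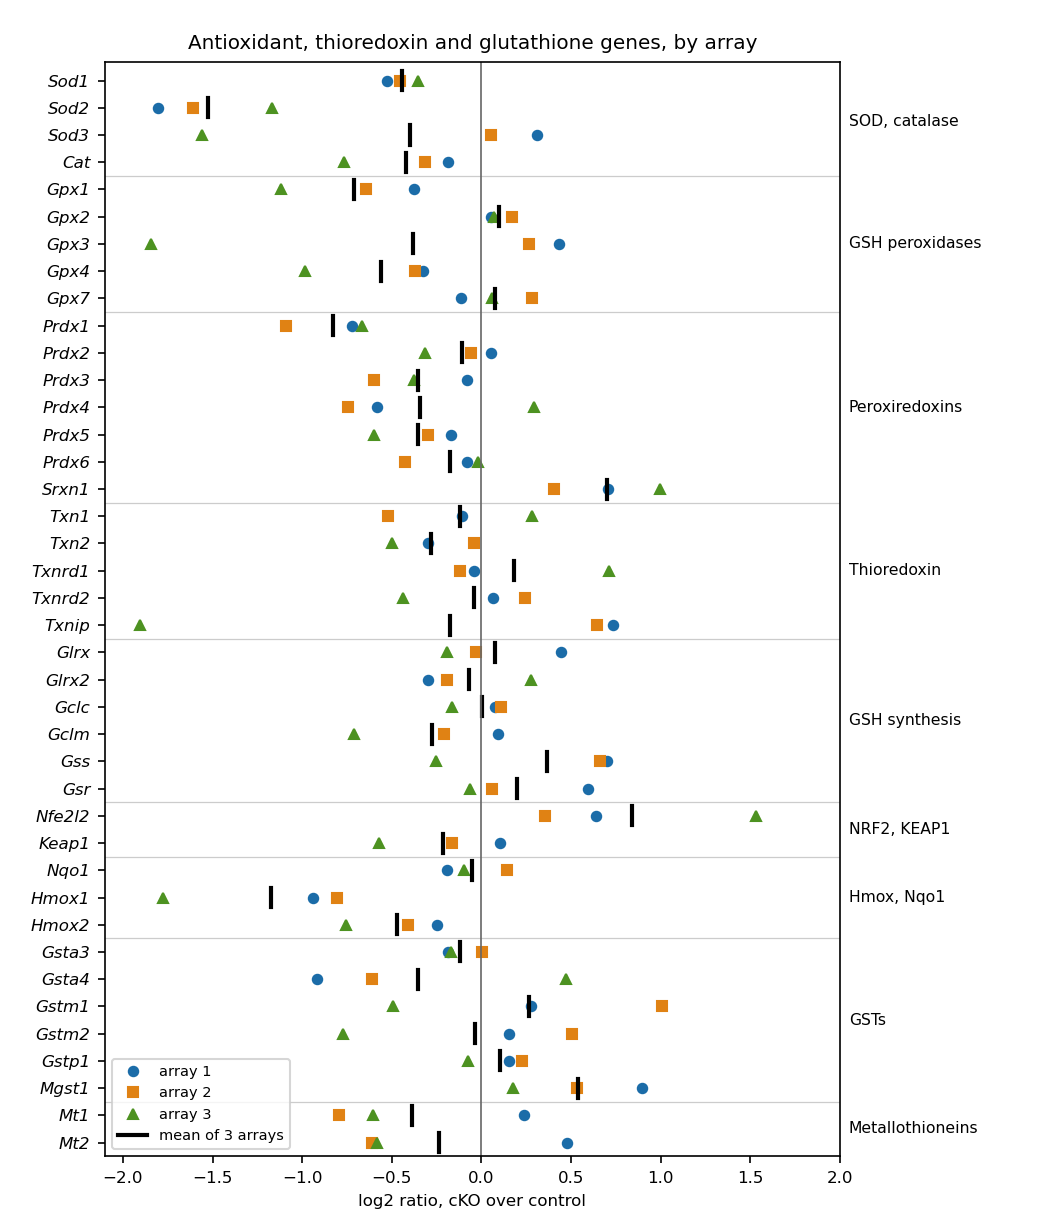
Log2 ratio of cKO over control (horizontal axis) for each of the 40 genes on array 1 (circles), array 2 (squares) and array 3 (triangles), with the mean of the 3 arrays as a black bar and the genes grouped by role. Sod2, Hmox1, Prdx1 and Gpx1 lie left of 0 on every array, Srxn1 and Nfe2l2 lie right of 0 on every array, and 24 genes lie on both sides of 0.

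Sod2 was the gene farthest from 0 among the 40. It encodes the manganese superoxide dismutase of the mitochondrial matrix, which removes superoxide where the respiratory chain makes it. The normalised log2 intensity of its probe was 15.58, 15.05 and 14.59 in the control pools of arrays 1 to 3, and 13.78, 13.44 and 13.42 in the cKO pools. Every cKO pool was thus below every control pool, a pattern found in that direction for 6 of the 40 genes and for 4.31% of all genes; array 1 was brighter than the others in both pools. The log2 ratios were -1.80, -1.61 and -1.17, a mean of -1.53 ± 0.32 (SD, n = 3), which is 2.88-fold lower. Its 95% confidence interval ran from -1.97 to -1.08, and the adjusted p was 0.102 (limma), so it did not pass the threshold. By its p-value Sod2 stood at rank 67 of the genes tested. Sod2 was read by 1 probe with 1 spot on each array. In whole ovaries, fewer cells that express a gene and less of its RNA per cell cannot be told apart, here and for each gene below.

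The other dismutases and catalase had means of smaller size. Sod1, the copper-zinc dismutase of the cytosol, had log2 ratios of -0.53, -0.46 and -0.35, a mean of -0.45 ± 0.09, and its control spot was saturated on 1 array. All 3 cKO pools of Sod1 were below all 3 control pools (limma, adjusted p = 0.311), but its other probes averaged -0.08 and 0.06, and the mean over its probes was -0.16. Those other probes were dimmer, with a mean log2 intensity of 8.12 and 6.86 against 15.29 for the brightest. With the scanner software's own log ratio the mean of Sod1 was -0.19. Catalase, the peroxisomal enzyme encoded by Cat, gave -0.19, -0.31 and -0.77, with array 3 the lowest. Sod3, the secreted dismutase, gave 0.31, 0.06 and -1.56, so the arrays differed in sign. Over the 4 genes the median was -0.43, with medians of -0.36, -0.38 and -0.97 on arrays 1 to 3.

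Among the glutathione peroxidases, which use glutathione to reduce peroxides, Gpx1 and Gpx4 were below 0 on every array. Gpx1, the abundant enzyme of cytosol and mitochondria, had a log2 intensity of 15.37, 15.16 and 15.34 in the control pools and of 14.99, 14.52 and 14.21 in the cKO pools, without overlap. Its ratios of -0.38, -0.64 and -1.12 gave a mean of -0.71 ± 0.38, 1.64-fold lower (95% interval -1.20 to -0.23; limma, adjusted p = 0.292). Gpx4, the enzyme that reduces lipid peroxides within membranes, gave -0.33, -0.37 and -0.99, a mean of -0.56 ± 0.37 (adjusted p = 0.354). Both were lowest on array 3; without replicate 3 their means were -0.51 and -0.35. Gpx3, the secreted peroxidase, had ratios of 0.43, 0.27 and -1.84, one of 2 genes among the 40 whose arrays spanned more than 2 log2 units across 0, against 1.13% of all genes. Gpx2, known from the gut epithelium, stayed close to 0 at 0.06, 0.17 and 0.07, with an interval from -0.22 to 0.42. Its probe was dim, with a mean log2 intensity of 6.60, and the processing draws ratios of dim probes toward 0. Gpx7, an enzyme of the endoplasmic reticulum, averaged 0.08. The group's median of -0.38 was 0.08 without replicate 3, a change of sign.

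Peroxiredoxins reduce hydrogen peroxide, most of them with electrons from thioredoxin. A mean below 0 was found for 6 of the 6 measured. However, Prdx2 turned to 0.0042 with the scanner software's own log ratio and to 0.22 with the mean of its kept probes. Prdx1, a peroxiredoxin of cytosol and nucleus, had a log2 intensity of 14.99, 14.73 and 14.58 in the control pools and of 14.26, 13.63 and 13.91 in the cKO pools, again without overlap. Its ratios were -0.72, -1.09 and -0.67, a mean of -0.83 ± 0.23, 1.77-fold lower (95% interval -1.22 to -0.44; limma, adjusted p = 0.216). It was the antioxidant gene with the next lowest p-value after Sod2, at rank 251 of all genes. With the scanner software's own log ratio its mean was -0.34. The others were smaller. Prdx3 of mitochondria averaged -0.35, Prdx4 of the endoplasmic reticulum -0.34, Prdx5 of mitochondria and peroxisomes -0.36, Prdx6 -0.17 and Prdx2 -0.11. Prdx3, Prdx5 and Prdx6 were below 0 on every array, and Prdx4 was at -0.58 and -0.75 on arrays 1 and 2 but 0.29 on array 3. A control spot of Prdx2 was saturated on 1 array, and without saturated spots its mean was -0.064. The other probes of Prdx2 were above 0, at 0.56 and 0.21.

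Srxn1, sulfiredoxin, which repairs peroxiredoxins that peroxide has overoxidised, lay on the other side of 0. Its log2 intensity was 10.98, 10.61 and 10.42 in the control pools and 11.69, 11.01 and 11.41 in the cKO pools. All 3 cKO pools were above all 3 control pools, as for 3 of the 40 genes and for 2.01% of all genes. The lowest cKO pool (11.01, array 2) and the highest control pool (10.98, array 1) were nearly level. The ratios of 0.70, 0.40 and 0.99 gave a mean of 0.70 ± 0.30, 1.63-fold higher (95% interval 0.27 to 1.13; limma, adjusted p = 0.266). Its other probes averaged 0.78 and 0.67 and were above 0 on every array, so its 3 probes gave means of like size.

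**Figure D2:**
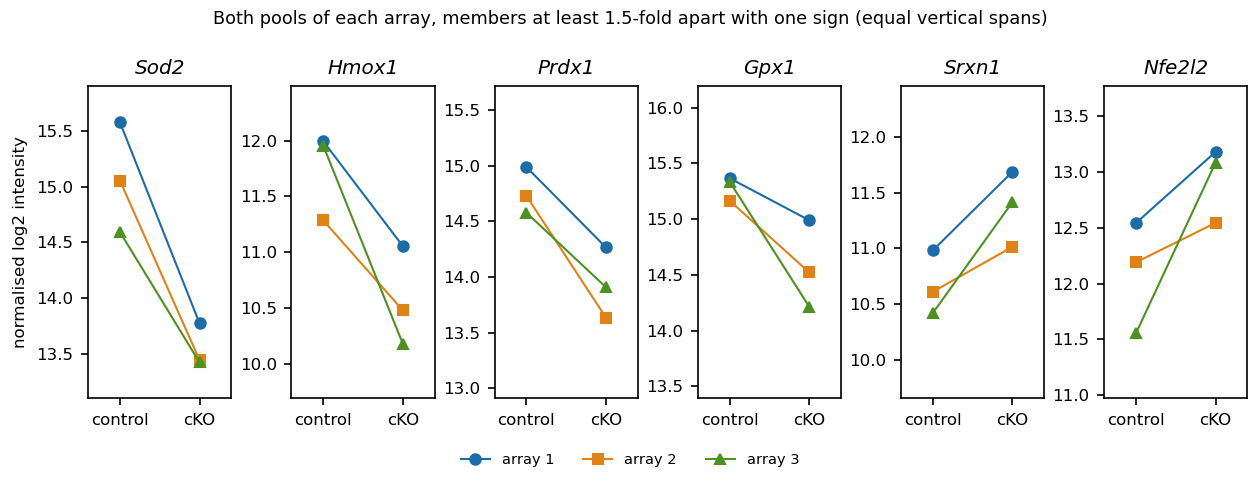
Normalised log2 intensity (vertical axis, with the same span in each panel) of the control and cKO pools of each array for the 6 genes at least 1.5-fold apart with 1 sign on all arrays; lines join the pools of 1 array. The lines of Sod2, Hmox1, Prdx1 and Gpx1 go down from control to cKO on all 3 arrays, and those of Srxn1 and Nfe2l2 go up.

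Heme oxygenases break heme down to biliverdin, iron and carbon monoxide. Hmox1, the inducible enzyme and an NRF2 target, had a log2 intensity of 12.00, 11.29 and 11.96 in the control pools and of 11.05, 10.48 and 10.18 in the cKO pools. The genotypes did not overlap, and the widest gap was on array 3. Its ratios were -0.94, -0.81 and -1.78, a mean of -1.17 ± 0.53, 2.26-fold lower (95% interval -1.78 to -0.57; limma, adjusted p = 0.241). Without replicate 3 the mean was -0.87, and with the scanner software's own log ratio it was -0.74. Hmox2, the constitutive enzyme, was also below 0 on every array, at -0.25, -0.41 and -0.75 (mean -0.47 ± 0.26, adjusted p = 0.354). Nqo1, a quinone reductase and another NRF2 target, gave -0.19, 0.14 and -0.10, with an interval from -0.41 to 0.31. Its probe was dim, with a mean log2 intensity of 7.31, and the processing draws ratios of dim probes toward 0. With the scanner software's own log ratio the mean of Nqo1 was -0.37, against -0.05 here.

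Nfe2l2, which encodes NRF2, had the highest mean of the 40. Its log2 intensity was 12.54, 12.19 and 11.56 in the control pools and 13.18, 12.55 and 13.09 in the cKO pools; the lowest cKO pool and the highest control pool were nearly level. The ratios were 0.64, 0.35 and 1.53, a mean of 0.84 ± 0.61, 1.79-fold higher (95% interval 0.16 to 1.52; limma, adjusted p = 0.338). Without replicate 3 the mean was 0.50. Of its other probes, 1 averaged 0.36. Another averaged -0.25 but was dimmer, with a mean log2 intensity of 6.92 against 12.52 for the brightest. The mean over all probes of Nfe2l2 was 0.32. Keap1, its inhibitor, gave 0.10, -0.16 and -0.57, so the arrays differed in sign. Of 8 genes known as NRF2 targets (Nqo1, Hmox1, Gclc, Gclm, Srxn1, Txnrd1, Prdx1 and Gsr), 4 had a mean below 0 and 4 above, with a median of -0.02.

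Thioredoxins are small proteins that reduce disulfides and are themselves reduced by thioredoxin reductases. None of their genes had a mean of 1.5-fold. Txn2, the mitochondrial thioredoxin, was below 0 on every array, at -0.30, -0.04 and -0.50, and its second probe averaged -0.46. Txnrd1, the cytosolic reductase, gave -0.04, -0.12 and 0.71, with array 3 alone above 0. Txn1 averaged -0.12 and Txnrd2, the mitochondrial reductase, -0.04. Txnip, the protein that binds and inhibits thioredoxin, had the widest range over the arrays of the 40 genes, at 0.73, 0.64 and -1.91. Its second probe gave 0.79, 0.92 and -1.38, so both probes put array 3 on the other side of 0 from arrays 1 and 2. In the control pools the log2 intensity of Txnip was 12.84, 12.25 and 13.48, and in the cKO pools it was 13.57, 12.89 and 11.58. The control pool of array 3 was the brightest of its genotype and the cKO pool of array 3 the dimmest.

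Genes that make, recycle or use glutathione for disulfides were close to 0 or changed sign between arrays. Gclc and Gclm, the catalytic and modifier subunits of the first enzyme of glutathione synthesis, averaged 0.01 and -0.28; Gclm, the lowest of the group, gave 0.09, -0.21 and -0.71. Gss, the enzyme that completes glutathione, was the highest at 0.70, 0.66 and -0.25. Gsr, which returns oxidised glutathione to its reduced form, averaged 0.20, and its other probes 0.31 and 0.52. The glutaredoxins Glrx and Glrx2 averaged 0.07 and -0.07. The interval of Gclc, -0.34 to 0.35, leaves out a 1.5-fold difference (0.58) in either direction.

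Glutathione S-transferases attach glutathione to foreign compounds and lipid peroxidation products. Mgst1, a microsomal transferase of this kind, was above 0 on every array, at 0.90, 0.53 and 0.18 (mean 0.54 ± 0.36, 1.45-fold; limma, adjusted p = 0.360). Its second probe gave 1.55, 0.82 and 0.79, a mean of 1.05, with the same order of arrays. Gsta4, which acts on the lipid peroxidation product 4-hydroxynonenal, was the lowest at -0.92, -0.61 and 0.47. It had 10 spots on each array, whose SD was 0.29, 0.21 and 0.24; this covers the spread between spots of an array, not that between pools. Gstm1 gave 0.28, 1.01 and -0.49, and its second probe 0.65, 0.72 and -2.04. Gstm2 averaged -0.04, Gsta3 -0.12 and Gstp1 0.10. Near-identical members of the mu class can share probe signal, so the values of Gstm1 and Gstm2 are uncertain.

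Metallothioneins bind zinc and copper and scavenge radicals. Mt1 gave 0.24, -0.79 and -0.61, and Mt2 0.47, -0.61 and -0.58. Both were above 0 on array 1, which lay alone on its slide, and below 0 on arrays 2 and 3. Mt1 also had 10 spots on each array, with an SD of 0.30, 0.23 and 0.25. The adjusted p was 0.595 for Mt1 and 0.788 for Mt2 (limma). The medians of the surface epithelium markers had the same order of signs, at 0.89, -0.46 and -0.80 over 6 of 6 markers. Among them Msln was at 0.02 on array 2. The medians of the adipocyte markers had that order too, at 0.50, -0.24 and -0.36 over 4 of 5. Only Adipoq and Cfd shared it singly, while Plin1 was above 0 on every array (0.40, 1.24 and 0.43) and Fabp4 was at 0.05 on array 2. The summed intensity of the surface epithelium markers was 97399, 29988 and 35416 in the cKO pools of arrays 1 to 3 and 49611, 40184 and 58483 in the control pools. Their part in the values of Mt1 and Mt2 was not tested.

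A list of mitochondrial antioxidant genes held 6 of the 40: Sod2, Prdx3, Prdx5, Txn2, Txnrd2 and Glrx2. Gpx1, whose enzyme is found in the cytosol as well as in mitochondria, was not in that list, and its mean of -0.71 is given above. All 6 had a mean below 0, although Glrx2, Txn2 and Txnrd2 turned sign under another normalisation or probe rule, and 4 were below 0 on every array, where 17.8% of all genes were. Their median was -0.32, and -0.16 with median centring of the arrays in place of loess. Apart from Sod2, the means of the 6 ran from -0.36 to -0.04, and none of these others was counted at an unadjusted p under 0.05.

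Promoter sequences were at hand for 34 of the 40 genes and are shown for 6 of them to set the NRF2 motif beside the values above. The windows are the 250 bases before the RefSeq transcription start on GRCm38.p6, written 5′ to 3′ on the gene's strand, with matches to the core of the antioxidant response element, TGACNNNGC on either strand, in capitals. Prdx1, Sod1, Nfe2l2 and Mgst1 had a match, and Sod2 and Srxn1 had none to this exact pattern in this window. The Srxn1 window does hold tgagtcagc, which differs from the pattern only by a g in place of its fixed C. Looser forms of the pattern were not searched. For Mgst1, the window of the first of its starts in the table is shown.

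Prdx1, chr4:116685349-116685598, + strand: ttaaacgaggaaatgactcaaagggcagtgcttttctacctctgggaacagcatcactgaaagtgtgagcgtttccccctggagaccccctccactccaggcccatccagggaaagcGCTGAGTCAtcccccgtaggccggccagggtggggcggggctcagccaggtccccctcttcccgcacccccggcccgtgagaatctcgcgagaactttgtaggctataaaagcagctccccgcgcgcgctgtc
Sod1, chr16:90220512-90220761, + strand: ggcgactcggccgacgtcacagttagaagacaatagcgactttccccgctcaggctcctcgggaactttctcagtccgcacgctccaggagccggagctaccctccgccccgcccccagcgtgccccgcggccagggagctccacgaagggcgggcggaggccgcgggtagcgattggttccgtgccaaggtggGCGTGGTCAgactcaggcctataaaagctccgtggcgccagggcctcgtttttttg
Nfe2l2, chr2:75704664-75704913, - strand: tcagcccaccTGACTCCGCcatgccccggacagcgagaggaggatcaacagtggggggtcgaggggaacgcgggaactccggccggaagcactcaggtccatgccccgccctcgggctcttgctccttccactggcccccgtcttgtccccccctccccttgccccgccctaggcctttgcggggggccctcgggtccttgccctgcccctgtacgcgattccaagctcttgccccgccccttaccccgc
Mgst1, chr6:138140277-138140526, + strand: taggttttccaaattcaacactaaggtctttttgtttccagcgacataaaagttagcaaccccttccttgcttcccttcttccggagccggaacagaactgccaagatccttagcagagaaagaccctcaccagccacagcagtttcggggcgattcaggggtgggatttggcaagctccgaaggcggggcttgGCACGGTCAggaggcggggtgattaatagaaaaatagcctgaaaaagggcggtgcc
Sod2, chr17:13007589-13007838, + strand: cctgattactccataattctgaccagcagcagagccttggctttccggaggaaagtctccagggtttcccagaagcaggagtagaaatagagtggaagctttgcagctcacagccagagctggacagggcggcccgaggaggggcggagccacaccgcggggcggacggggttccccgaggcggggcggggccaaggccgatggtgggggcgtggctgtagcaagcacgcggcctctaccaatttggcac
Srxn1, chr2:152105274-152105523, + strand: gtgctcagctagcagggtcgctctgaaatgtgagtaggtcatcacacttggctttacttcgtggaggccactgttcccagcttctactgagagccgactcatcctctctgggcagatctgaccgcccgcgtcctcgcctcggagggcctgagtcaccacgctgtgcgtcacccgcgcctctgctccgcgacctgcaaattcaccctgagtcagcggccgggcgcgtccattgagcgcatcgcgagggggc

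The match began 133 bases before the start in Prdx1, 56 in Sod1 and in Mgst1, and 240 in Nfe2l2. The core was also present in Gclm, Gsta3, Mt2 and Txnrd1, so 8 of 34 genes (23.5%) held it, beside 11.5% of the 27025 genes with a promoter in the table. Of these 8 genes, Prdx1 and Sod1 were below 0 on every array, Nfe2l2 and Mgst1 above 0 on every array, and the values of Gclm, Gsta3, Mt2 and Txnrd1 changed sign between arrays. The E-box CACGTG, which reads the same on both strands, was present in 2 of 34 genes (5.88%), Glrx2 and Prdx4, beside 6.86% of all genes in the table, and no window of the 34 genes held both motifs. A match is a string of letters and does not show binding.

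Among these genes, array 3 gave the lowest ratio more often than the highest. Its ratio was the lowest of the 3 arrays for 22 of the 40, against 40.5% of all genes, the highest for 11, against 43.6%, and between the others for 7. The median over the 40 was 0.00 on array 1, -0.09 on array 2 and -0.36 on array 3, where the medians of all genes were -0.01, -0.00 and 0.01. Array 3 was below both other arrays by more than 1 log2 unit for 3 genes, Sod3, Gpx3 and Txnip, against 3.94% of all genes, and above both by that much for 1, Gsta4, against 2.8%. Without replicate 3 the means of these genes were 0.18, 0.35 and 0.69.

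Markers of other cell types also differed between the arrays. The median log2 ratio of 10 macrophage markers was 0.94, 0.98 and -0.58 on arrays 1 to 3, and that of 6 smooth muscle markers 0.20, 1.07 and -1.0. The summed intensity of the macrophage markers was 30121 to 89981 in the cKO pools and 18933 to 28374 in the control pools. Of the 10, 8 had a mean above 0. Above 0 on every array were 2 (17.5% of all genes), and Mrc1 was below 0 on every array. On array 3 the sums were 30121 (cKO) and 28374 (control). There Lyz2 and Fcgr1 were at 0.46 and 0.20, and the other macrophage markers were below 0. The summed intensity of the smooth muscle markers was 16399 to 49855 against 16553 to 32875. The 8 steroidogenic and luteal markers had medians of -0.10, -0.41 and -0.71, with sums of 114791 to 215704 against 192380 to 213533, and 1 of them, Star, was called lower. The 7 fibroblast and fibrillar matrix markers had medians of 0.71, 1.20 and 0.13, and 5 of 7 were above 0 on every array, against 17.5% of all genes. Higher at an unadjusted p under 0.05 were 4, against 5.91% of all genes, and 0 passed the adjusted threshold. The second probes of Col1a1, Col3a1 and Col5a1 averaged 0.36, 0.05 and 0.14, against 1.02, 0.59 and 1.25 for the brightest. The summed intensity of the 7 markers was 37797 to 73265 in the cKO pools and 29008 to 47479 in the control pools. The part of these cell types in the values of the antioxidant genes was not tested.

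**Figure D3:**
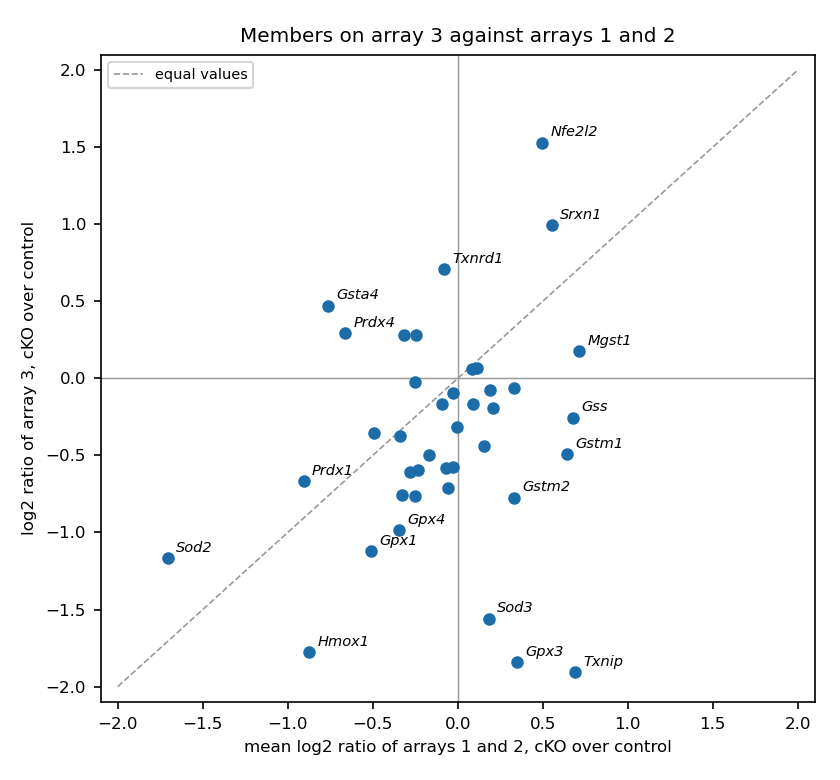
Log2 ratio of cKO over control on array 3 (vertical axis) against the mean of arrays 1 and 2 (horizontal axis), 1 point for each of the 40 genes; the dashed line marks equal values. Sod2, Hmox1, Prdx1 and Gpx1 lie below 0 on both axes, Nfe2l2 and Srxn1 above 0 on both, and Txnip, Gpx3 and Sod3 lie right of 0 and at -1.56 or below on array 3.

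For 15 of the 40 genes more than 1 probe passed the filter, which gave 23 further probes. Of these, 10 had a mean of opposite sign to the brightest probe, in 9 genes (Glrx2, Gsta3, Gstm1, Gstp1, Nfe2l2, Prdx2, Sod1, Txnip and Txnrd2). The kept probes of Srxn1, Gsr, Mgst1, Prdx4, Prdx6 and Txn2 had means of 1 sign within each gene. Sod2, Hmox1, Prdx1 and Gpx1 were among the 25 genes read by a single kept probe, so no further probe bears on their values.

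**Figure D4:**
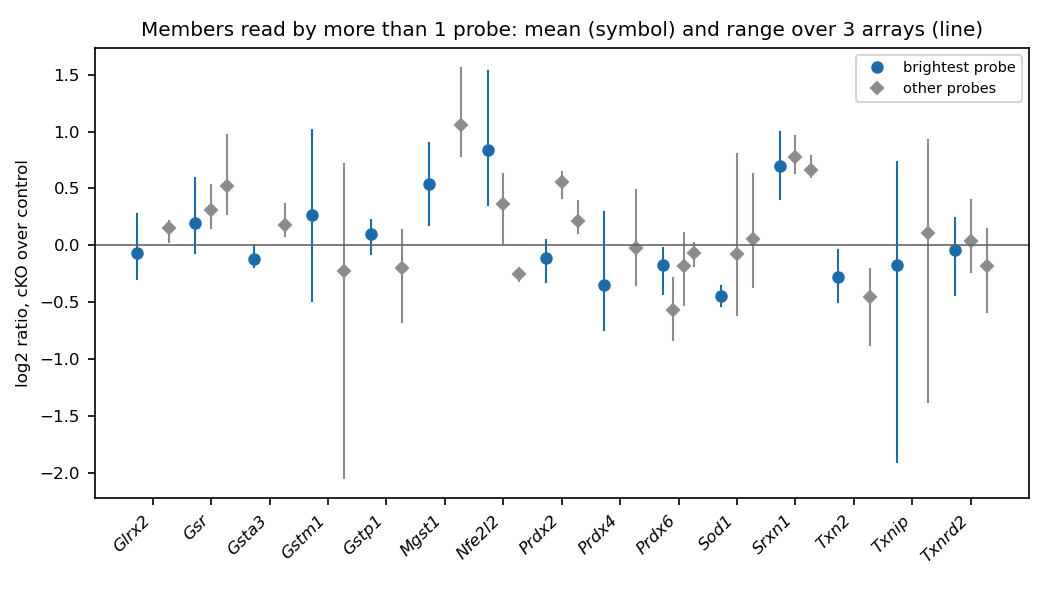
Log2 ratio of cKO over control (vertical axis) of each kept probe of the 15 genes read by more than 1; circles are the brightest probe, diamonds the others, at the mean of 3 arrays, and vertical lines run from the lowest to the highest array. The 3 probes of Srxn1 and both of Mgst1 lie above 0 with their whole range, and both probes of Gstm1 and of Txnip span more than 1 log2 unit across 0.

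Of further genes around these systems, listed by function, 0 of 57 passed the threshold (limma, adjusted p under 0.05), against 0.179% of all genes. At an unadjusted p under 0.05 there were 13, against 12.3% of all genes, of which 8 were lower in the cKO (6.44% of all genes) and 5 higher (5.91%). Among 18 NRF2 partners and further NRF2 targets, 13 had a mean above 0 and 5 below, with a median of 0.14; below 0 were 3, 6 and 8 of the 18 with median centring, scaled arrays and the scanner software's own log ratio. With 1 array left out that median was 0.022 (replicate 1, with 9 of 18 below 0), 0.057 (replicate 2) and 0.34 (replicate 3). Maff, a small MAF partner of NRF2, was highest at 0.60, 0.88 and 0.59, followed by the glutathione conjugate exporter Abcc1 at 0.82, 0.72 and 0.51, whose other probes averaged 0.18 and 0.01. Among 8 genes that supply NADPH, the electron source of both reductase systems, 6 were below 0, with a median of -0.28. It was -0.13 without replicate 3, -0.14 with the scanner software's own log ratio, -0.16 with median centring and -0.15 with the mean of kept probes. Pgd, of the pentose phosphate pathway, gave -0.68, -0.39 and -0.93, but its other probe averaged 0.32. Of 14 further glutathione S-transferases tested (Ggt1, the 15th gene of that list, was not tested), 12 had a mean below 0 and 6 were below 0 on every array, against 17.8% of all genes, with a median of -0.37. With median centring, scaled arrays or the scanner software's own log ratio, 10, 11 and 13 of the 14 were below 0. Gstm6 was the lowest of all these at -0.75, -0.83 and -1.35, a mean of -0.98. It was read by 1 probe. Like Gstm1 and Gstm2, the genes Gstm3 to Gstm7 are of the mu class, so their values are uncertain for the same reason. The remaining 17 redox genes had 8 means below 0 and 9 above, with a median of 0.01, and 2, 9 and 11 were below 0 under those same alternatives.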

How the data were processed

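The deposited spot and background intensity values are unnormalised output of Agilent Feature Extraction (version 9.1.3.1, per the file headers). That software also dye-normalised the signals and wrote log10 ratios of Cy5 (red, control) over cy3 (green, cKO), which were deposited too, and the series' value table held these same values. Flags for controls, outliers, background and saturation are the scanner's own in the deposited files. What else the authors did is not given in the sources used here.

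Mean signals were corrected by normexp (offset 50) and normalised within arrays by loess in limma 3.58.1 under R 4.3.3, with control spots at weight 0. Outlier spots (13, 4 and 0 on arrays 1 to 3) were left out, spots of a probe were averaged, and probes well above background in one channel on all 3 arrays were kept. The brightest kept probe stood for a gene. The log2 ratio (cKO over control) was tested against 0 (lmFit and eBayes, two-sided, Benjamini-Hochberg over 17849 genes, threshold 0.05). This procedure was also run on simulated data with independent noise in each gene. Those data held no dye effect and no array standing apart, so they do not cover these features of the arrays. The number of arrays limits the precision. Loess takes most genes of like intensity to be equal in both pools, and the offset draws ratios of dim probes toward 0.

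The genes and lists were chosen with earlier results of these data known. Arrays were grouped by their titles, since the cKO genotype label carries a Cre number that changes with the array. Values on every array are given for genes past the threshold, for those at least 1.5-fold apart with 1 sign on all arrays, for the highest and the lowest of each role, and for those spanning 0 over more than 2 log2 units; a few others were added after their values were seen. Alternatives covered the ratio, normalisation, filter, offset, probe rule, saturation, slide and each array left out.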

Additional observations from a re-analysis of the deposited data

How the results depend on the processing

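Under all 12 alternatives (the scanner software's own log ratio, median centring or scaling of arrays, no filter on dim probes, a normexp offset of 10, the mean of a gene's kept probes, no saturated spots, the slide as a block or only the slide of arrays 2 and 3, and each array left out) 0 of the 40 antioxidant genes passed the adjusted threshold. The smallest adjusted p among them was 0.0579 for Sod2, without replicate 3. The 10 genes counted at an unadjusted p under 0.05 kept their direction under all 12. Each of the 10 had the same sign on all 3 arrays, so leaving out any array, or using only arrays 2 and 3, could not reverse it. Without the filter on dim probes their values were unchanged. These settings therefore do not test the direction of the 10 genes, which were also picked by their p-values on the same arrays. Each array holds both genotypes, so the ratio tested is itself the paired value, and the slide was the only further block fitted.

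Over all genes, 32 calls became 57 with an offset of 10 (28 higher, 29 lower), 53 with the scanner's ratio (27 and 26), 1 with median centring, 1 within the slide of arrays 2 and 3, 0 without the dim filter and 0 with scaled arrays, where 3181 and 2333 genes had an unadjusted p under 0.05. The slide as a block gave 26 higher and 22 lower, where 13 and 19 stood before, and leaving out 1 array gave 0 (replicate 3, with 4782 genes at an unadjusted p under 0.05) to 21 calls (replicate 2, 11 higher and 10 lower). Antioxidant genes at an unadjusted p under 0.05 numbered 4 with the scanner's ratio and 7 to 16 with 1 array left out. Over all 17849 genes the same counts were 1070 with the scanner's ratio and 770 to 4782 with 1 array left out. Median centring moved the median of all genes to 0.12; under it the median of the 40 was -0.04, below that shift, 7 were below 0 on every array, and the medians were -0.16 for mitochondrial genes, 0.15 for NRF2 targets and -0.16 for peroxiredoxins with Srxn1. The last ran from -0.25 to -0.14 with 1 array left out. The median of Nfe2l2 and Keap1 was 0.052 over the mean of kept probes.

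Of 480 values of single genes, 41 changed sign, in 19 genes; 21 genes never did. The slide of arrays 2 and 3 and leaving out replicate 1 are the same fit, so 11 alternatives are distinct, and 36 of their 440 values changed sign. None of these had passed the threshold. With the mean of kept probes the values were 0.041 for Glrx2, 0.031 for Gsta3, -0.047 for Gstp1 and 0.22 for Prdx2. With median centring the values were 0.13 for Glrx2, 0.091 for Gsta3, 0.029 for Gstm2, 0.085 for Nqo1 and 0.18 for Txnrd2. With scaled arrays the values were 0.032 for Gstm2. With the scanner's ratio the values were -0.038 for Gclc, -0.17 for Glrx, 0.10 for Glrx2, -0.032 for Gpx2, -0.018 for Gpx7, 0.11 for Gstm2, 0.0042 for Prdx2, 0.10 for Txn1 and 0.038 for Txn2. With the slide as a block the values were 0.010 for Gstm2 and 0.051 for Txnip. Within the slide of arrays 2 and 3 the values were -0.029 for Gclc, -0.11 for Glrx, 0.045 for Glrx2, -0.0025 for Gsr and 0.022 for Nqo1. Leaving out 1 array gave -0.046 to 0.092 for Gclc, -0.11 to 0.21 for Glrx, -0.24 to 0.045 for Glrx2, -0.79 to 0.35 for Gpx3, -0.028 to 0.17 for Gpx7, -0.0025 to 0.33 for Gsr, -0.11 to 0.64 for Gstm1, -0.31 to 0.33 for Gstm2, -0.15 to 0.022 for Nqo1, -0.75 to 0.18 for Sod3, -0.32 to 0.086 for Txn1, -0.63 to 0.69 for Txnip, -0.081 to 0.33 for Txnrd1 and -0.19 to 0.15 for Txnrd2.

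The number of arrays, 3, limits the precision, and all 40 genes were above background in both channels. Where 1 array was left out, the spread rests on 2 arrays. For the calls that changed with a setting, the cause was not tested.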
